A study of Mus musculus with 2 samples.

Results

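Mir142, Mir142b, Mir223, Mir150, Mir155, Mir146 and Mir146b are 7 microRNA genes known from leukocytes and from inflammation, and they were measured here in whole skeletal muscle. They were chosen by symbol in the GENCODE M21 annotation, all 7 were found, and they are 7 of the 2202 microRNA genes in the count tables. The tissue was the gastrocnemius, a large calf muscle, from male mice of strain B6CASTF1/J, adults aged between 18 and 20 months. This strain is the F1 hybrid of C57BL/6J and CAST/EiJ. Small RNA with inserts under 30 nt was sequenced in 2 libraries of a single group, called biological replicates 1 and 2, with no treatment and no other age or tissue. The biosamples were separate but carried the same donor entry, so whether they came from separate animals is not given and the differences between them may be technical.

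MicroRNAs are short RNAs cut from a hairpin precursor. Through the seed, bases 2 to 8, they pair with messenger RNAs and lower their translation or stability. Mir142 is transcribed in nearly all blood cell lineages, Mir223 mainly in granulocytes and monocytes, and Mir150 mainly in mature lymphocytes. Mir155 is induced when lymphocytes and macrophages are activated. Mir146 is induced by NF-kappaB and lowers Traf6 and Irak1, which feeds back on the same signalling. Mir142 and Mir223 are known from blood and immune cells rather than from muscle fibres.

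The mature sequences are shown because counts were made per gene and not per arm, and because their seeds tell which genes can act on the same targets. They were taken from RefSeq (build GRCm38.p6), whose table held 12 mature sequences of the 7 genes and hairpins of 6 of them. The hairpin of Mir150 and miR-150-5p are not shown, and the statements on seeds do not cover miR-150-5p. Capitals mark the seed.
miR-142a-5p: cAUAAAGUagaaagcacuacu
miR-142a-3p: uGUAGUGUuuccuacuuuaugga
miR-142b: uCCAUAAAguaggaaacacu
miR-223-3p: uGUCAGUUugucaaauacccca
miR-150-3p: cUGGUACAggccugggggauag
miR-155-5p: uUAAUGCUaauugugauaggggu
miR-146a-5p: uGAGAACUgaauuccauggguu
miR-146b-5p: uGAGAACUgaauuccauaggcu

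The 12 mature sequences had 11 distinct seeds, and only miR-146a-5p and miR-146b-5p shared one. None of the other seeds occurred in another of the 1679 mature microRNAs of the table. The 22 bases of miR-146a-5p and miR-146b-5p were the same at 20 positions and differed at 2, G18A and U21C, counted from the 5′ end with the base of miR-146a-5p first. A read that ends before base 18 is therefore the same in both. The precursors of Mir146 and Mir146b shared a stretch of 20 bases with each other, and no other member shared one with any microRNA gene at another locus.

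The 4 hairpins whose reads could be mistaken for each other follow, with the mature microRNAs in capitals. Mir142 and Mir142b are the opposite strands of the same place, and all 20 bases of miR-142b are complementary to miR-142a-3p.
Mir142: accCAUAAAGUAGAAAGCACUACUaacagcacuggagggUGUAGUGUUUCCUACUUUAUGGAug
Mir142b: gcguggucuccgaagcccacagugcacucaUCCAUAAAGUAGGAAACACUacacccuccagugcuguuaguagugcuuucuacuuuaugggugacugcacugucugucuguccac
Mir146: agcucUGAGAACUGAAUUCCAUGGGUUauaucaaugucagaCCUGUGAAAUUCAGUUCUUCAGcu
Mir146b: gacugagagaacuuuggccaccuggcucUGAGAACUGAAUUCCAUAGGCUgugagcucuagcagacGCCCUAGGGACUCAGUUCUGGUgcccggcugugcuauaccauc

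In mm10, with positions counted from 1, Mir142 (ENSMUSG00000105196.1) occupies 87756864 to 87756927 of chromosome 11 on the plus strand, in an intron of the lincRNA gene Mir142hg. Mir142b (ENSMUSG00000065420.2) covers it on the minus strand, from 87756841 to 87756955. Mir223 (ENSMUSG00000076066.1) occupies 96242817 to 96242926 of chromosome X, plus strand, within an exon of the noncoding gene F630028O10Rik. Mir150 (ENSMUSG00000065495.1) occupies 45121757 to 45121821 of chromosome 7, plus strand, between genes. Mir155 (ENSMUSG00000065397.1) occupies 84714140 to 84714204 of chromosome 16, plus strand, within an exon of its host Mir155hg. Mir146 (ENSMUSG00000065601.1), which makes miR-146a, lies between genes on chromosome 11 from 43374397 to 43374461, minus strand. Mir146b (ENSMUSG00000070127.2) occupies 46342762 to 46342870 of chromosome 19, plus strand, in an intron of Mfsd13a.

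The reads assigned to microRNA genes numbered 4442692 in replicate 1 and 2156222 in replicate 2, so the values of replicate 1 carry the smaller counting error. Assigned reads were 15.7% and 19.8% of those in the tables, most of the rest being multimapping (73.8% and 70.2%), which were not counted for any gene. Markers of skeletal muscle were present in both libraries. Among the reads counted they were led by Mir206 at 11810 and 61540 CPM, which are counts scaled to a common total of assigned counts. Genes whose mature sequence also comes from another place in the genome can be undercounted. The lead of Mir206 therefore need not hold for the mature microRNAs. Levels below are CPM with exact 95% Clopper-Pearson intervals, which cover counting error only. Values were not divided by gene length, because 1 read stands for 1 short RNA and the mature sequences of the 7 genes are of nearly equal length, 20 to 23 bases.

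The lymphocyte gene Mir150 and the activation gene Mir155 were the highest of the 7. Such names are taken from the background above, and which cells of the muscle held the RNA was not tested. Mir150 had 4805 counts in replicate 1 and 3811 in replicate 2, or 1082 CPM (95% interval 1051 to 1113) and 1767 CPM (1712 to 1824), a mean of 1425 ± 485 CPM (SD, n = 2). Mir155 had 3790 and 3503 counts, or 853 CPM (826 to 881) and 1625 CPM (1571 to 1679), a mean of 1239 ± 546 CPM. Mir150 was above Mir155 within each library, but Mir155 in replicate 2 was above Mir150 in replicate 1, so the ranges of the genes overlapped. By mean level they were the 49th and 50th of the 2202 genes, between Mir93 at 1467 ± 46.7 CPM and Mir320 at 1073 ± 355 CPM.

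Mir146, the NF-kappaB feedback gene, ranked after both and was nearly level between the libraries over assigned counts. It had 2088 and 1045 counts, or 470 CPM (450 to 491.0) and 485 CPM (456 to 515), a mean of 477 ± 10.4 CPM. Its values lay below every value of Mir150 and Mir155 and above every value of the remaining genes. In the order of mean levels it was the 75th gene, between Mir221 at 485 ± 343 CPM and Mir181a-2 at 468 ± 227 CPM, both of which varied far more between the libraries. Mir146b, with the same seed, was close to the detection limit at 6 and 4 counts, or 1.35 CPM (0.496 to 2.94) and 1.86 CPM (0.505 to 4.75). For each count of Mir146b there were 348 of Mir146 in replicate 1 (160 to 949) and 261 in replicate 2 (102 to 961). The intervals of that ratio overlapped.

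Mir223, the granulocyte and monocyte gene, and Mir142, the general blood cell gene, were lower. Mir223 had 753 and 291 counts, or 169 CPM (158 to 182) and 135 CPM (120 to 151), a mean of 152 ± 24.4 CPM. Mir142 had 805 and 226 counts, or 181 CPM (169 to 194) and 105 CPM (91.6 to 119), a mean of 143 ± 54.0 CPM. Both had the higher CPM in replicate 1, for Mir223 not with all reads as the total, and their order was reversed between the libraries, so neither ranks above the other beyond its spread. They were the 116th and 119th genes by mean level. The erythroid gene Mir144, at 143 ± 176 CPM, was next above Mir142, and Mir24-2, at 133 ± 62.8 CPM, next below.

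Mir142b had 0 counts on its strand in both libraries, for which a limit of 3 counts corresponds to 0.675 CPM in the deeper library and 1.39 CPM in the other. The upper bounds of its exact 95% intervals were 0.830 and 1.71 CPM. The counts on the opposite strand of Mir142b, 805 and 226, equal the counts of Mir142. All reads that were assigned at this locus thus came from the Mir142 strand. In the counts without strand, the column named for these genes in the rule that chose the set, Mir142 and Mir142b both stood at 0 in both libraries. Reads in the overlap are ambiguous between the genes there, so the strand-specific counts are used for Mir142. For the other 5 genes the counts with and without strand were the same, apart from 2 opposite-strand reads of Mir150 in replicate 1.

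**Figure D1:**
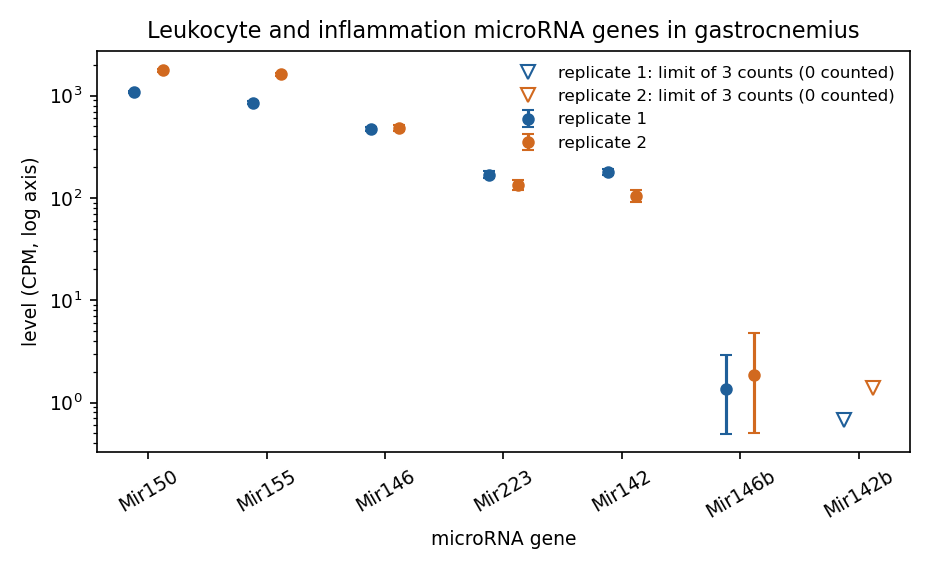
Level of each of the 7 genes in each library, in CPM on a log axis, with exact 95% counting intervals. Open triangles give the limit of 3 counts for Mir142b, which had 0. Mir150 and Mir155 lead in both libraries. Over assigned counts Mir146 is nearly level between them. Mir223 and Mir142 have the lower CPM in replicate 2, for Mir223 only over assigned counts.

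Together the 7 genes took 0.276% of assigned counts in replicate 1 (12247 counts, 95% interval 0.271 to 0.281%) and 0.412% in replicate 2 (8880 counts, 0.403 to 0.420%), a mean of 0.344% ± 0.0963 (SD, n = 2). The share was 1.49-fold higher in replicate 2, and the size of this difference depended on the total. With Mir22 left out the shares were 0.324% in replicate 1 and 0.426% in replicate 2. With all reads as the total they were 0.0431% and 0.0817%. In a bulk sample, fewer cells of a type and less RNA per cell cannot be told apart. The genes whose difference was most like that of the 7 summed (log2 ratio 0.67), among 113 others with 1000 or more counts, were Mir23b and Mir26b, both at 0.68, and Mir203 at 0.66. With 2 libraries that likeness is the nearness of a single ratio.

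The make-up of the set needs no scaling between libraries, and its intervals cover counting error only. Mir150 made up 39.2% of the counts of the 7 genes in replicate 1 (38.4 to 40.1%) and 42.9% in replicate 2 (41.9 to 44.0%). Mir155 made up 30.9% (30.1 to 31.8%) and 39.4% (38.4 to 40.5%). Both thus held a larger part in replicate 2, and Mir155 gained more. Mir146 made up 17.0% (16.4 to 17.7%) and 11.8% (11.1 to 12.5%). Mir142 made up 6.57% (6.14 to 7.03%) and 2.55% (2.23 to 2.89%), and Mir223 6.15% (5.73 to 6.59%) and 3.28% (2.92 to 3.67%). The blood lineage genes Mir142 and Mir223 therefore held a smaller part in replicate 2, and so did Mir146.

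**Figure D2:**
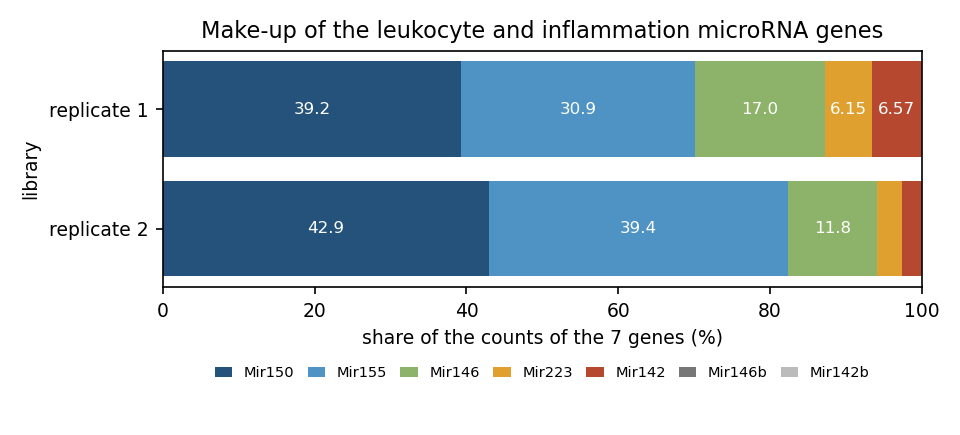
Share of each gene in the summed counts of the 7 genes, in percent, 1 bar per library. Mir150 and Mir155 take a larger part in replicate 2, and Mir146, Mir223 and Mir142 a smaller one, while Mir146b and Mir142b are too low to see.

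Of the 15 pairs that can be made of the 6 genes with counts, the ratio within a library had intervals that did not overlap between the libraries in 10, and the other 5 were the pairs with Mir146b. Among all 6903 pairs of the 118 genes with 1000 or more counts the intervals did not overlap in 89.8%, so at these counts a ratio that moved is the usual case and not particular to these genes. The widest shift was between Mir155 and Mir142, with 4.71 counts of Mir155 for each of Mir142 in replicate 1 (4.36 to 5.09) and 15.5 in replicate 2 (13.5 to 17.8), a change of 3.29-fold. Mir150 over Mir142 went from 5.97 (5.54 to 6.44) to 16.9 (14.7 to 19.4). Mir150 over Mir223, the lymphocyte gene over the myeloid one, went from 6.38 (5.91 to 6.90) to 13.1 (11.6 to 14.8). The steadiest was Mir150 over Mir155, at 1.27 (1.21 to 1.32) and 1.09 (1.04 to 1.14). Mir223 over Mir142 was 0.935 (0.846 to 1.03) and 1.29 (1.08 to 1.54).

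**Figure D3:**
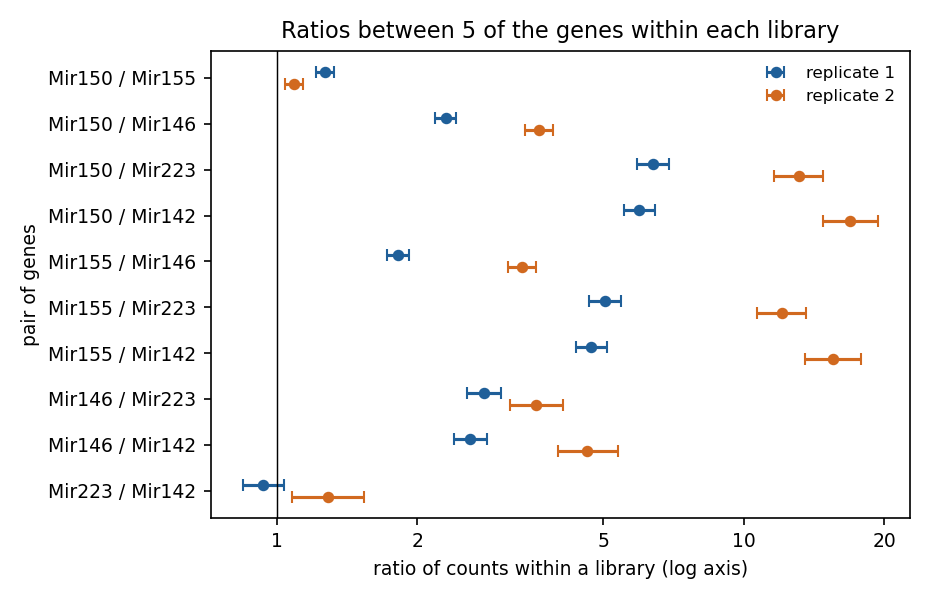
Ratio of counts between 2 genes within each library, on a log axis, with exact 95% counting intervals, for the 10 pairs without Mir146b. Every ratio of Mir150, Mir155 or Mir146 to Mir223 or Mir142 is higher in replicate 2, and Mir150 over Mir155 moves least.

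Replicate 2 against replicate 1 asks how far the genes differ between samples of the same labels. The comparison is of these libraries and not of conditions, and it has no replicate check. An exact two-sided binomial test of the counts, with TMM-scaled library sizes and Benjamini-Hochberg adjustment over the 380 genes with 10 or more counts, takes only counting error into account. Of the 7 genes 6 entered it, of which 5 passed an adjusted p of 0.05, 3 with the higher level in replicate 2 and 2 with the higher level in replicate 1. Over all 380 genes tested 61.8% passed, 30.3% higher in replicate 2 and 31.6% higher in replicate 1, so at this depth a call is common. Calls are more common at higher counts, and the 5 genes that passed had 1000 or more counts each. With a minimum of 100 counts 190 of 228 genes passed, so the calls are not particular to these 5. Over the 380 genes the split was 115 against 120. It was 144 against 88 with all reads of the table as the total, which moves log2 ratios by about 0.25. It was 82 against 149 with plain totals that leave out Mir22, which moves them by about −0.28. Both totals were chosen after seeing the data.

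For Mir155, higher in replicate 2, the log2 ratio was 1.02 (95% counting interval 0.956 to 1.09; adjusted p = 6.1e-194, exact binomial test), and for Mir150 it was 0.80 (0.740 to 0.863; adjusted p = 5.2e-139). Mir142 was higher in replicate 1, at −0.69 (−0.916 to −0.482; adjusted p = 7.7e-11). Mir223 was at −0.23 (−0.436 to −0.0384; adjusted p = 0.0303) and Mir146 at 0.14 (0.0290 to 0.245; adjusted p = 0.0216), and both calls and both directions depended on the setting. After thinning replicate 1 to the total of replicate 2, Mir223 was at −0.17 with an adjusted p of 0.192 (exact binomial test, medians of 21 draws). With plain totals in place of TMM, Mir146 was at 0.04 with an adjusted p of 0.518 (exact binomial test). With all reads as the total Mir223 was at 0.012 (adjusted p = 0.917, exact binomial test), and with plain totals without Mir22 Mir146 was at −0.14 (adjusted p = 0.0198). Mir146 was at 0.38 with all reads as the total. Mir155, Mir150 and Mir142 kept their direction under each of these settings. Mir146b was at 0.34 (−1.72 to 2.63; adjusted p = 0.600) and could not be resolved at 10 counts.

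The median log2 ratio of the 6 genes was 0.24, beside 0.02 over all 380 genes tested, and the median size of the difference, whatever its sign, was 0.51 beside 0.65. The genes with 100 or more counts, 228 in number, had an SD of 1.13 in the log2 ratio, and each of the 6 genes lay within that of 0. The edgeR exact test with a common dispersion for both libraries (biological coefficient of variation 0.529) called none of the 6 genes and 0 of 380 (0.00%), with 27 of the 380 at an unadjusted p under 0.05. That dispersion comes from the same 2 libraries whose difference is tested, and even Mir122, the gene with the widest difference at 29.6-fold, had an adjusted p of 0.0625, so this test could hardly call any gene and says nothing of the 6. The differences of Mir155, Mir150 and Mir142 were larger than the counting error, and without further libraries they could not be set against the spread between samples.

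**Figure D4:**
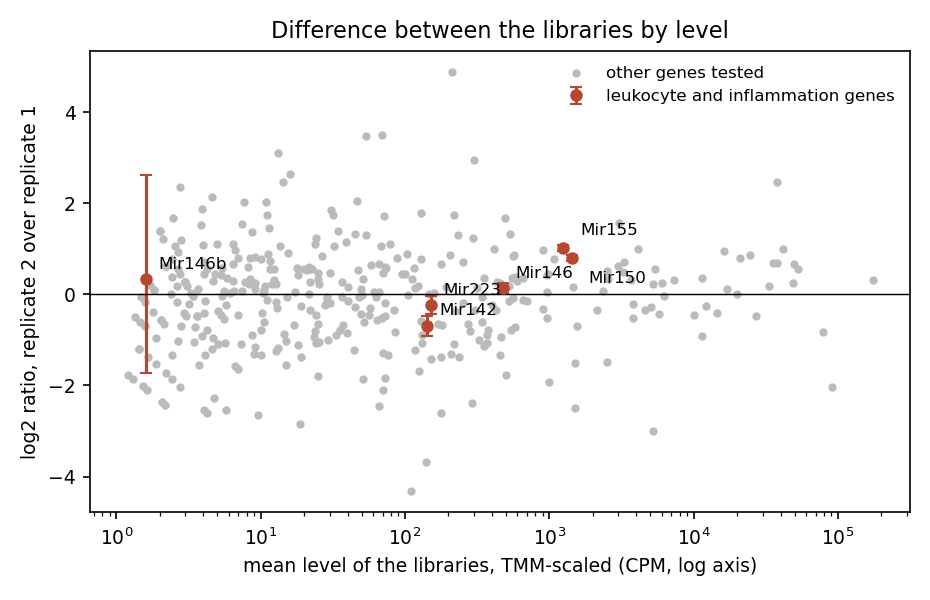
Log2 ratio of replicate 2 over replicate 1 against the mean TMM-scaled level of the libraries in CPM on a log axis, for the 380 genes tested. The 6 leukocyte and inflammation genes, with 95% counting intervals, lie between −0.69 and 1.02, inside the cloud of the other genes.

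Markers of other cell types differed between the libraries too. Such calls were common, since of all 380 genes tested 30.3% passed toward replicate 2 and 31.6% toward replicate 1. The erythroid genes Mir451a and Mir144 were both higher in replicate 1 and together took 777 CPM there and 109 CPM in replicate 2. The endothelial list had Mir126a alone with counts, at 104418 and 55386 CPM, also higher in replicate 1, and Mir126b at 0. Of 9 skeletal muscle genes 3 passed toward replicate 2, 4 toward replicate 1 and 2 in neither direction. Their summed level was 16413 and 65700 CPM, of which Mir206 alone was 11810 and 61540 CPM, so the sum mainly follows that gene. The fibroblast and stroma list, with 2 of 3 tested genes higher in replicate 1, summed to 1654 and 416 CPM, and Mir143 and Mir145a of smooth muscle and mural cells, both higher in replicate 2, to 48845 and 56840 CPM. Mir150 had 2.13 counts for each of Mir451a in replicate 1 (2.02 to 2.24) and 19.6 in replicate 2 (17.0 to 22.8), and 1.04 and 3.19 counts for each 100 of Mir126a. Mir142 was thus higher in the same library as the red cell and endothelial genes and the called fibroblast and stroma genes. Mir150 and Mir155 were higher in the other, as was the mural gene Mir145a. Mir143 was too, but plain totals without Mir22 move ratios by about −0.28, more than its log2 ratio of 0.26. The skeletal muscle genes were divided, and the directions of Mir223 and Mir143 depended on the total used. The part of blood content, vessels or fibres in these differences was not tested.

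Of all 380 genes tested the exact binomial test called 30.3% toward replicate 2 and 31.6% toward replicate 1. Among 9 other leukocyte-linked genes, all tested, it called 4 toward replicate 2 and 2 toward replicate 1 and left 3 uncalled. Their median log2 ratio was 0.17. Mir342, in an intron of Evl and known from lymphocytes, had the highest mean level of the list, at 419 CPM in replicate 1 and 700 CPM in replicate 2, and its log2 ratio of 0.83 was close to the 0.80 of Mir150. Mir511, which lies in the macrophage gene Mrc1, was low at 7.43 and 12.5 CPM (log2 ratio 0.77). The mir-181 genes, known from lymphocyte development, were divided. Mir181d (0.89) and Mir181b-2 (0.17) were higher in replicate 2, and Mir181a-2 (−0.94) and Mir181a-1 (−0.78) were higher in replicate 1. Plain totals without Mir22 move ratios by about −0.28, which is more than the 0.17 of Mir181b-2. The direction of Mir181b-2 thus depended on the total. The list took 0.179% and 0.181% of assigned counts, so over that total its counted sum was nearly level while its genes were not. Other totals would move the sum as they move the ratios. Reads that map to several places were left out. The directions and the sum may therefore cover only part of what paired loci such as Mir181a-1 and Mir181a-2 make.

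Of 14 genes linked to inflammation and NF-kappaB signalling, 10 were tested. Beside 61.8% called over all 380 genes, 5 of these 10 were called toward replicate 2, 3 toward replicate 1 and 2 in neither direction. Their median log2 ratio was 0.70. Mir221 went from 243 to 727 CPM (1.67) and its neighbour Mir222 from 26.1 to 62.6 CPM (1.32). Mir132, induced by CREB and in myeloid cells by Toll-like receptor signals, went from 138 to 319 CPM (1.29). The abundant genes of the list went the other way. Mir21a, found in many stressed and inflamed tissues, had 15456 CPM in replicate 1 and 7683 CPM in replicate 2 (−0.92), and Mir125a 5300 and 3895 CPM (−0.35). Mir125b-1 had 278 and 228 CPM (−0.19), a ratio that all reads as the total, with a shift of about 0.25, would turn. The list summed to 21585 CPM in replicate 1 and 13083 CPM in replicate 2, against the direction of its median ratio. Mir9-1 and Mir9-2 had no count, Mir9-3 had 6 counts in replicate 2 alone, and Mir147 had 5 counts in replicate 1 alone. Reads that map to several places were counted for no gene, so the low counts of the Mir9 genes need not show absence.

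**Figure D5:**
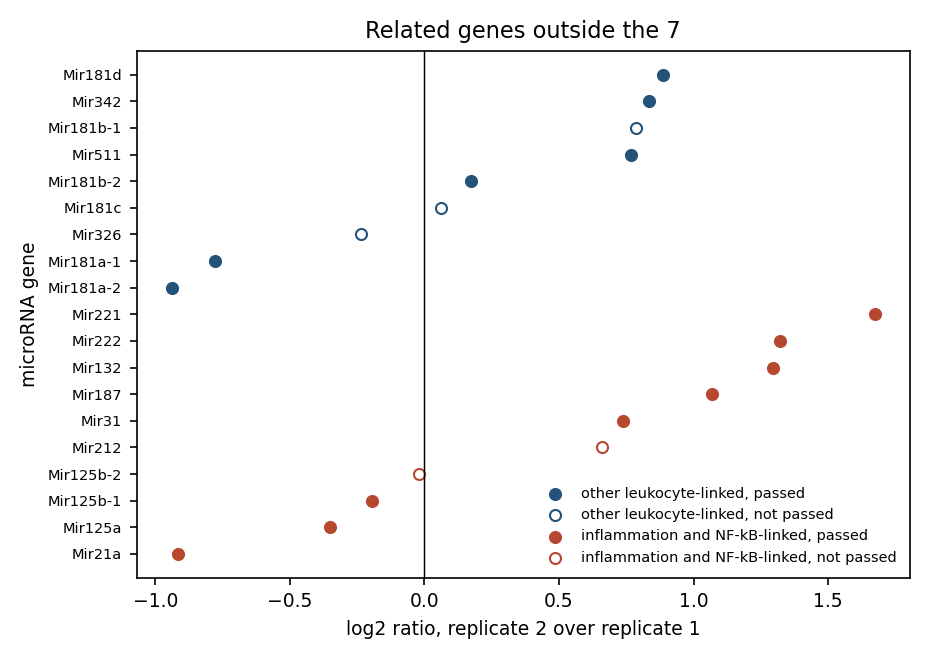
Log2 ratio of replicate 2 over replicate 1 for the 19 tested genes of the leukocyte-linked and inflammation-linked lists, with open points for those that did not pass the exact binomial test. The ratios run from −0.94 for Mir181a-2 to 1.67 for Mir221, with both directions in each list.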

How the data were processed

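The deposited values are raw read counts per microRNA gene, 1 table per library, which the authors made on mm10 with GENCODE M21, per the readmes deposited with them. The aligner, trimmer and counter: not given in the sources used here. Their columns, read from the values, are unstranded, sense and antisense counts, and the sense counts were used. Rows for reads of no gene (84.3% and 80.2% of reads) stayed out of totals and tests. CPM were computed over assigned counts and log2 ratios from TMM-scaled CPM + 1, which moves them by 0.0932 against plain totals. All 2202 identifiers matched the annotation. The members and lists were chosen with earlier results of these data known. Named genes were every member, up to 4 genes of highest mean CPM per list, the neighbours in level and the 3 nearest ratios. Mir511, Mir122, Mir181a-1, Mir132, Mir222, Mir9-1, Mir9-2, Mir9-3 and Mir147 fall outside that rule and were named after their values were seen. On data simulated with counting error only, over 380 genes tested for replicate 2 against replicate 1, the test called 75.0% of 96 genes with a 2-fold change and 2.63% of the 190 with none. Tests ran in Python 3.11.15 with scipy 1.17.1, and scaling in edgeR 4.0.16 and DESeq2 1.42.0 under R 4.3.3.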

Additional observations from a re-analysis of the deposited data

How the results depend on the processing

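No paired analysis was possible because there is 1 group. With edgeR's exact test 0 genes and 0 of the 7 passed, higher in replicate 2 or in replicate 1, in place of 235 and 5, but its dispersion came from the same libraries and it could call hardly any gene. With counts without strand, 3 of the 7 passed, 1 of them higher in replicate 1, since Mir142 has no count there. Over all 355 genes tested in that setting 211 passed, 107 of them higher in replicate 1. The summed share was 0.456% on a smaller total. With replicate 1 thinned (21 draws, a number set after a single draw was seen to be unsteady), 1 was higher in replicate 1. Over all 349 genes tested then, 102 were (medians of the draws). With all reads as the total the mean share was 0.0624%. Without one replicate the share of assigned counts ran from 0.276 to 0.412%. The calls of Mir155, Mir150 and Mir142 held under the other alternatives in which they had counts. Mir146 did not pass with DESeq2's size factors (adjusted p = 0.107, exact binomial test), plain totals (0.518, or 0.150 with Mir378a left out), counts without strand (0.0590) or Mir22 left out (0.0770). The direction turned for Mir223 with all reads as the total (log2 ratio 0.012), and for Mir146 with plain totals without Mir22 (−0.14) or without strand (−0.0027). These totals were added after seeing the data. With all reads as the total 1 of the 7 was higher in replicate 1, beside 88 of the 380 genes tested. With plain totals without strand 1 of the 7 was too, beside 118 of 355 genes, and 3 passed, beside 211. Depth limits Mir146b and Mir142b.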
